A study of Mus musculus with 2 samples.

Results

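The miR-17-92 cluster is a run of 6 microRNA (miRNA) hairpins, Mir17, Mir18, Mir19a, Mir20a, Mir19b-1 and Mir92-1, carried by the non-coding transcript Mir17hg on mouse chromosome 14. Its members were taken by position in that transcript, not by level, and each of the 6 had a row among the 1973 genes of the count tables. Small RNA under 30 nucleotides was sequenced from the stomach of healthy B6NCrl mouse embryos at embryonic day 16.5, in 1 group of 2 biological replicates. Each replicate was a pool of male and female embryos, 41 of them in replicate 2 and an unstated number in replicate 1, and both carry the same donor label. There was no treatment, mutant or other age, so the comparisons are among hairpins, between the 2 libraries, and with the paralogous clusters. Between-library tests compare those libraries only and hold no spread among animals.

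Replicate 1 held 7734578 reads counted on the sense strand of a gene and replicate 2 held 7983714. Levels are counts per 1000000 of these reads (CPM), and the floor of 3 counts equals 0.388 CPM in replicate 1 and 0.376 CPM in replicate 2. The stomach label was set beside marker lists, which were chosen with earlier results of these data known. No list is for stomach alone, so the lists cannot tell it from other gut. The smooth muscle list (Mir143 and Mir145a) summed to 202084 and 197398 CPM, the 5 epithelial miR-200 genes to 50884 and 51089 CPM, and the 4 gastrointestinal genes (Mir192, Mir194-1, Mir194-2 and Mir215) to 4171 and 3774 CPM. Endocrine Mir375 stood at 10291 and 11959 CPM. Lists for other cell types were also present: hepatocyte Mir122 stood at 1821 and 1210 CPM, the striated muscle list at 3357 and 198 CPM, the erythroid list at 1240 and 591 CPM, and the leukocyte list at 1355 and 1247 CPM. None of the genes in these lists was at 0. Most of the striated muscle sum in replicate 1 was Mir206, at 3184 CPM against 99.8 CPM in replicate 2. Of the 4 genes in that list, 2 reached 10 CPM in both libraries. In whole tissue, fewer cells of a type and less RNA per cell cannot be told apart.

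A miRNA hairpin is cut out of its primary transcript by Drosha and Dgcr8 and opened by Dicer, and 1 strand, the guide, is loaded into an Argonaute protein. The guide finds target messengers mainly through its seed, bases 2 to 8 from the 5′ end, so hairpins that share a seed share many targets. The miR-17-92 cluster is transcribed under the control of Myc and E2F factors, is known as an oncogene in lymphoma, and is needed in mouse development for the lung, the heart and B cells. Its miR-17 and miR-20a guides restrain cell cycle inhibitors such as Cdkn1a as well as E2F1, miR-18a acts on TGF-beta signalling, and miR-92a on the pro-apoptotic gene Bcl2l11 and the integrin Itga5.

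The guides of the 6 hairpins are shown with the seed in capitals, because the seeds divide the cluster into 4 families. Sequences are from RefSeq (GRCm38.p6), in which all 17 genes listed here for the cluster and its relatives had a match. The arms named as guides are those known as such from the field, since the counts belong to whole hairpins and do not tell the arms apart.
miR-17-5p (Mir17): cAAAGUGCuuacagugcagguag
miR-20a-5p (Mir20a): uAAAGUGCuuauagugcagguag
miR-18a-5p (Mir18): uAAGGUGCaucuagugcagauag
miR-19a-3p (Mir19a): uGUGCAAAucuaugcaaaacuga
miR-19b-3p (Mir19b-1): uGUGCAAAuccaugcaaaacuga
miR-92a-3p (Mir92-1): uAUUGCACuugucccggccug

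Mir17 and Mir20a carry the seed AAAGUGC, and their guides differ at 2 of 23 bases (C1U and C12U, written as the base in miR-17-5p, the position counted from the 5′ end, and the base in miR-20a-5p). Mir18 has the seed AAGGUGC. Mir19a and Mir19b-1 share GUGCAAA, and their guides differ at 1 base (U11C). Mir92-1 carries AUUGCAC.

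The 6 hairpins lie on the plus strand within 836 bases (GRCm38, the assembly that mm10 names), all inside exon 2 of the annotated long non-coding RNA gene Mir17hg, which spans chr14:115042879-115046727. In transcript order they are Mir17 at chr14:115043671-115043754, Mir18 at chr14:115043851-115043946, Mir19a at chr14:115044000-115044081, Mir20a at chr14:115044157-115044263, Mir19b-1 at chr14:115044305-115044391 and Mir92-1 at chr14:115044427-115044506. The gaps between neighbours run from 96 bases after Mir17 down to 35 bases before Mir92-1. No read lay on the opposite strand of any of the 6, and Mir17hg itself had no row in the count tables.

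Mir19b-1 and Mir92-1 have a paralog on chromosome X with the same guide, which bears on how their counts can be read. The hairpins are shown with the longest stretch shared with any other annotated miRNA hairpin in capitals.
Mir19b-1: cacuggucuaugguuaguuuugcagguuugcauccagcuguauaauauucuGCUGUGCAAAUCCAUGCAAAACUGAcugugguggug
Mir19b-2: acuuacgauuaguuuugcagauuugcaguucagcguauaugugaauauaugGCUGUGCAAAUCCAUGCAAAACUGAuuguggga
Mir92-1: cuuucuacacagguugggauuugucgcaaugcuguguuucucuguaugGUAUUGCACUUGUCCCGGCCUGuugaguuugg
Mir92-2: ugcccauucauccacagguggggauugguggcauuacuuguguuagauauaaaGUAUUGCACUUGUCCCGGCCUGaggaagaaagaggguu

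The shared stretch is 25 bases in the miR-19b pair and 22 bases in the miR-92a pair, and in each it ends at the last base of the guide. The deposited tables keep a separate total for multimapping reads, which made up 25.1% of replicate 1 and 25.2% of replicate 2, and it is inferred that gene counts leave them out. A read of the exact guide would then be missing from both hairpins of a pair, so the levels of Mir19b-1 and Mir92-1 are uncertain and a low value there does not show a low miRNA. The guides of Mir17, Mir18, Mir19a and Mir20a matched no other of 2202 annotated miRNA transcripts. That search covered annotated hairpins and not the whole genome.

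The counted level of the 6 hairpins of this transcript ran over 3 orders of magnitude, with Mir19b-1, whose guide is shared, at the low end. Without Mir19b-1 and Mir92-1 the fold from the highest to the lowest member was 379. Mir17 stood at 16752 CPM in replicate 1 and 13967 CPM in replicate 2, a mean of 15359 ± 1970 (SD, n = 2), and ranked 15 among all genes. Mir20a, with the same seed, stood at 6730 and 5432 CPM, a mean of 6081 ± 918, and ranked 31. Mir18 had 2860 and 2731 CPM, a mean of 2795 ± 91.3 and the smallest relative spread of the 6. The pair with the miR-17 seed thus filled the upper places of the cluster in both libraries.

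Mir92-1, the last hairpin, stood at 3132 CPM in replicate 1 and 1744 CPM in replicate 2, a mean of 2438 ± 981 (SD, n = 2). The miR-19 hairpins were the lowest. Mir19a had 331 and 306 reads, or 42.8 and 38.3 CPM, a mean of 40.6 ± 3.16. Mir19b-1 had 38 and 72 reads, or 4.91 and 9.02 CPM, a mean of 6.97 ± 2.90, above the floor of 3 counts but under 10 CPM in each library. Of the 6 members, 5 reached 10 CPM in both libraries. Mir19a, whose exact guide is not shared, was far lower than Mir17 in either library. Its guide lies 1 base (U11C) from the miR-19b guide of Mir19b-1 and Mir19b-2, so the placement of its reads is also less sure.

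**Figure D1:**
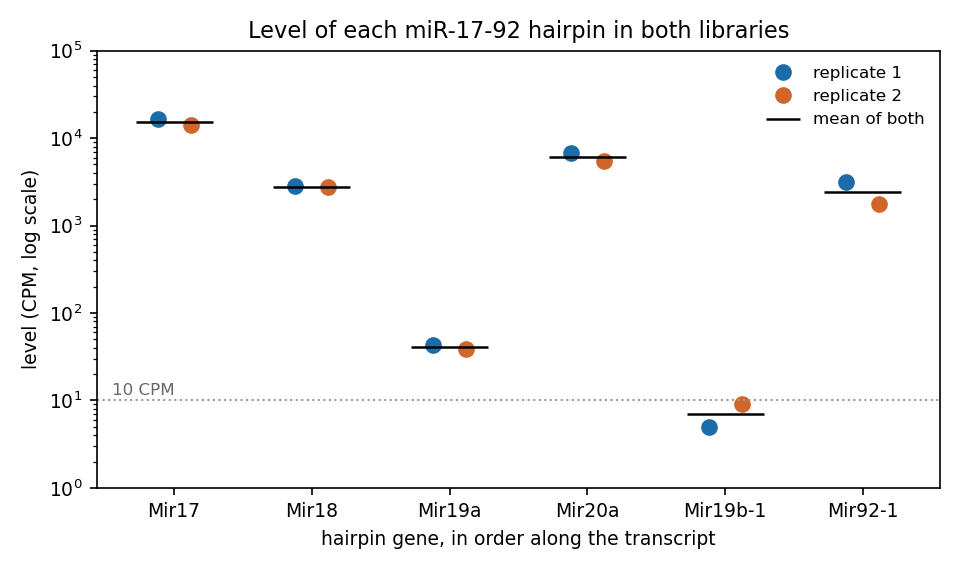
Level of each hairpin in CPM (log axis) in transcript order; points are the 2 libraries and bars their mean, and the dotted line marks 10 CPM. Mir17 lies highest at 15359 CPM, both miR-19 hairpins lie far under their neighbours, and Mir92-1 shows the widest gap between libraries among the 4 abundant hairpins.

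The order by mean level was Mir17, Mir20a, Mir18, Mir92-1, Mir19a and Mir19b-1. Every neighbouring pair in this order kept non-overlapping values over the 2 libraries except Mir18 and Mir92-1. Mir18 was 0.913 times Mir92-1 in replicate 1 and 1.57 times Mir92-1 in replicate 2, so their order is not settled. Mir17 exceeded Mir20a by 2.49-fold in replicate 1 and 2.57-fold in replicate 2. Mir20a exceeded Mir18 by 2.35-fold and 1.99-fold. Mir92-1 exceeded Mir19a by 73.2-fold and 45.5-fold. An exact two-sided permutation test of 2 values against 2 cannot give a p below 0.33, so none was used for these pairs.

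From the highest to the lowest member the fold of mean CPM was 2205, with 3410 in replicate 1 and 1549 in replicate 2. Without Mir19b-1 and Mir92-1, whose guides are shared with chromosome X, it was 379, set by Mir17 and Mir19a. A read here comes from a piece under 30 nucleotides and not from the length of the hairpin, which ranges from 80 to 107 bases. Per base of hairpin the fold was 2284, and Mir17 (183 CPM per base), Mir20a (56.8), Mir19a (0.495) and Mir19b-1 (0.0801) kept their places, while Mir92-1 (30.5) and Mir18 (29.1) changed places.

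The cluster together took 2.95% of the sense-assigned reads in replicate 1 (95% interval 2.94% to 2.96%, exact Clopper-Pearson) and 2.39% in replicate 2 (2.38% to 2.40%), a mean of 2.67% ± 0.396 (SD, n = 2). Such intervals cover counting error only. Mir17 supplied 56.7% of the cluster's reads in replicate 1 and 58.4% in replicate 2, and Mir20a supplied 22.8% and 22.7%. Mir18 made up 9.69% and 11.4%. Mir92-1 went the other way, with 10.6% in replicate 1 (10.5% to 10.7%) against 7.29% in replicate 2 (7.18% to 7.41%). The miR-19 hairpins were 0.145% and 0.160% for Mir19a and 0.0166% and 0.0377% for Mir19b-1.

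**Figure D2:**
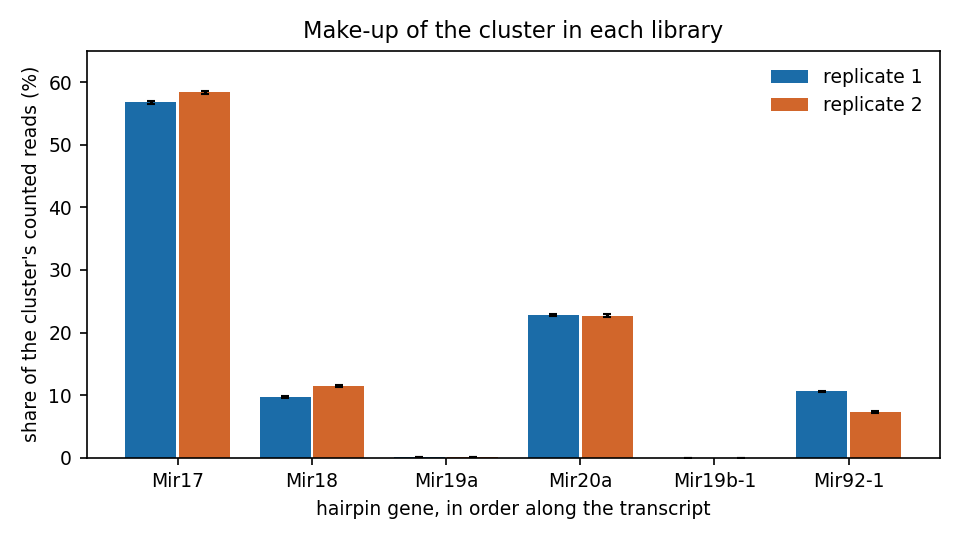
Share of the cluster's counted reads (percent) by hairpin in each library; bars are single libraries and error bars exact 95% intervals, which cover counting error only. Mir17 and Mir20a hold similar shares in both libraries, and the share of Mir92-1 is 10.6% in replicate 1 against 7.29% in replicate 2.

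The libraries were compared gene by gene after scaling by trimmed mean of M values (TMM), by an exact binomial test (two-sided) with Benjamini-Hochberg adjustment over the 289 genes whose mean reached 10 CPM. A gene was called at an adjusted p under 0.05 and at least 2-fold. None of the 5 members tested was called, while 7.96% of all genes tested were. Scaling with DESeq2 size factors also called 0 members, against 7.96% of all genes, and scaling with total reads 0 members against 10.03%. At a minimum of 1.5-fold 1 member passed, Mir92-1, against 20.1% of all genes. With no minimum fold 4 members passed (Mir17, Mir18, Mir20a and Mir92-1), as they did at an unadjusted p under 0.05, against 78.9% of all genes. At this depth small folds exceed counting error in most genes, so the folds themselves carry the comparison.

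Mir92-1 was 1.63-fold higher in replicate 1 (exact 95% interval 1.59 to 1.66), with 24223 reads against 13925. If reads of its exact guide are left out, as inferred above, this fold covers only its other reads and not miR-92a as a whole. Of the 289 genes, 46 (15.9%) lay at least as far apart. Mir20a was 1.12-fold higher in replicate 1 (1.11 to 1.14) and Mir17 1.09-fold (1.08 to 1.10), and 63.3% and 70.2% of the genes lay at least as far apart. Mir18 had a ratio of 0.949 (0.931 to 0.967), and its direction turned to a log2 ratio of 0.07 with total-read scaling. Mir19a had a ratio of 1.01 (0.863 to 1.19), which includes 1, and its log2 ratio turned to -0.03 under the size factors of DESeq2. The median log2 ratio of the 5 tested members was 0.12, against 0.06 over all genes tested. Total-read scaling moved the latter to 0.21.

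Mir19b-1 lay under the level for this test. When all 751 genes with a read were tested, it was called as lower in replicate 1, at a ratio of 0.497 (0.324 to 0.741) and an adjusted p of 0.0014 by the exact binomial test, against 7.19% of the genes called. That call rests on 38 and 72 reads. With total-read scaling its log2 ratio was -0.87, short of 2-fold.

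In counted reads relative to its neighbours in the same library, Mir92-1 moved most among the abundant hairpins, subject to the limit on shared guides given above. The ratio of Mir17 to Mir92-1 was 5.35 in replicate 1 and 8.01 in replicate 2, a change of 0.668-fold (0.653 to 0.683). The ratio of Mir17 to Mir20a changed by 0.968-fold (0.954 to 0.983) and that of Mir17 to Mir18 by 1.15-fold (1.12 to 1.17). These ratios within a library do not depend on the scaling. The striated muscle and erythroid lists were also higher in replicate 1, as given above, and their part in the difference of Mir92-1 was not tested.

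**Figure D3:**
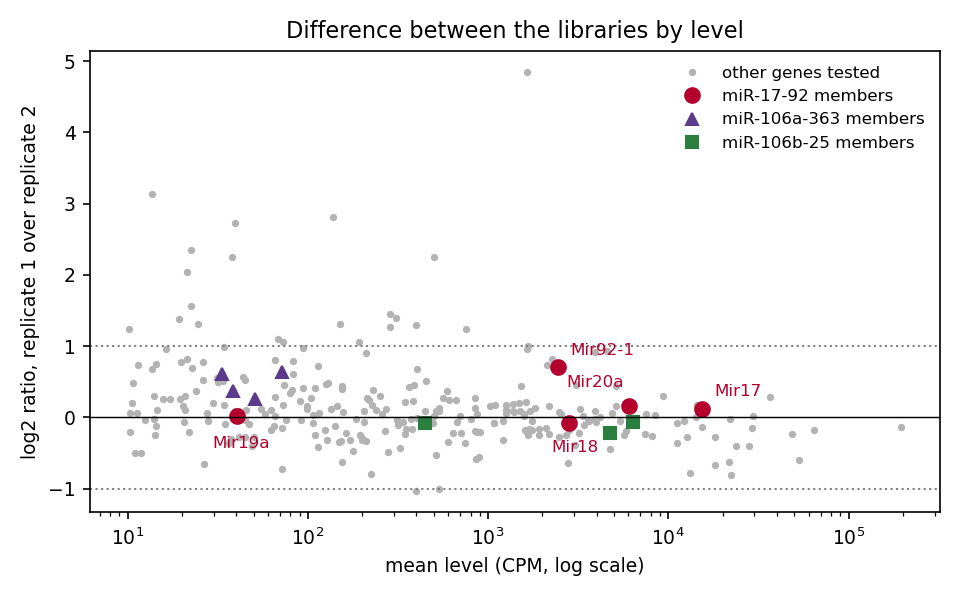
Log2 ratio of replicate 1 over replicate 2 (TMM scaling) against mean level in CPM (log axis) for the 289 genes tested; members of the cluster and its paralogs are coloured and dotted lines mark 2-fold. The 5 members tested lie inside the 2-fold lines, with Mir92-1 farthest from 0 at a log2 ratio of 0.70.

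The cluster has 2 paralogs in the mouse: miR-106b-25 (Mir106b, Mir93 and Mir25) on chromosome 5 and miR-106a-363 (Mir106a, Mir18b, Mir20b, Mir19b-2, Mir92-2 and Mir363) on chromosome X. The former lacks a miR-18 and a miR-19 hairpin. Guides that differ from one of miR-17-92 at 1 to 4 bases, including that of the lone gene Mir92b on chromosome 3, are shown with their seeds in capitals, since close sequences limit how surely reads were placed.
miR-106a-5p (Mir106a): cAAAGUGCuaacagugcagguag
miR-106b-5p (Mir106b): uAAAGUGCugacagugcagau
miR-93-5p (Mir93): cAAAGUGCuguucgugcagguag
miR-20b-5p (Mir20b): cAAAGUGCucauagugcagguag
miR-18b-5p (Mir18b): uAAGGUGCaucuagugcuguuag
miR-25-3p (Mir25): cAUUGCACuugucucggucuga
miR-92b-3p (Mir92b): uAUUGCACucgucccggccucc

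The guide of Mir106a differs from that of Mir17 at 1 base (U10A), that of Mir20b from Mir20a at 2 (U1C and U10C), and that of Mir18b from Mir18 at 2 (A18U and A20U). The guide of Mir92b differs from that of Mir92-1 at 2 of their 21 shared positions (U10C and G21C). The miR-19b guide shown earlier, carried by Mir19b-1 and Mir19b-2, differs from that of Mir19a at 1 base (U11C). No source used here gives the mismatches that the alignment allowed.

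Summed over its hairpins, miR-17-92 stood at 29522 and 23921 CPM, a mean of 26722 ± 3960.4 (SD, n = 2). The miR-106b-25 hairpins summed to 11694 and 11554 CPM, a mean of 11624 ± 98.5. The sum of miR-17-92 was 2.52 times that of miR-106b-25 in replicate 1 and 2.07 times in replicate 2, and the change between libraries of 1.22-fold (1.21 to 1.23) exceeded counting error. By the mean log2 CPM of the members the order turned, to a log2 ratio of -1.69, a measure in which each hairpin, the low miR-19 pair included, counts equally. The miR-106a-363 hairpins summed to 247 and 162 CPM, so miR-17-92 was 119.7 and 148 times higher.

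Within the miR-17 seed, the members Mir17 and Mir20a supplied 65.4% ± 2.84 (SD, n = 2) of the family's reads. Mir93 stood at 6577 and 6229 CPM and overlapped Mir20a, which was 1.02 times Mir93 in replicate 1 and 0.872 times in replicate 2. Mir106b stood at 4659 and 4887 CPM, under Mir20a in both libraries. Mir106a and Mir20b were low, at means of 50.8 ± 9.95 and 38.4 ± 9.68 CPM. Mir17 was 289.9 times Mir106a in replicate 1 and 319.5 times in replicate 2.

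Mir18 made up 99.8% ± 0.0171 (SD, n = 2) of the reads of the genes with the miR-18 seed, and its paralog Mir18b had 50 and 44 reads. The 2 miR-19 members held 92.2% ± 1.89 of the reads of their family, which came to only 406 reads in replicate 1 and 404 in replicate 2. Mir19b-2 had 37 and 26 reads, against 38 and 72 for Mir19b-1. The whole counted miR-19 family stood at 51.5 ± 1.34 CPM, a sum subject to the limit on shared guides given above.

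Mir92-1 supplied 77.7% of the counted reads of the genes with the miR-92 seed in replicate 1 and 68.0% in replicate 2. Among these genes only Mir92-1 and Mir92-2 share a guide. Their shares, and their ratios to the other genes, are therefore subject to the limit on shared guides given above. Its copy Mir92-2 stood at 90.2 and 52.7 CPM, and Mir92-1 was 34.7 times Mir92-2 in replicate 1 and 33.1 times in replicate 2. This ratio changed by 1.05-fold (0.928 to 1.19), within counting error. Whether reads of either hairpin were placed on the other cannot be told from these counts. The counted levels of both hairpins with the miR-92a guide were higher in replicate 1 by a similar factor. Mir92-2 was 1.55-fold higher there (1.37 to 1.75) and its neighbour Mir363 1.52-fold (1.27 to 1.83). Mir25, the miR-92 seed gene of the chromosome 5 cluster, had a ratio of 0.947 (0.903 to 0.992), and the ratio of Mir92-1 to Mir25 changed by 1.72-fold (1.63 to 1.81). Mir92b and Mir32, outside the 3 clusters, had ratios of 1.08 (0.994 to 1.18) and 0.801 (0.742 to 0.864).

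**Figure D4:**
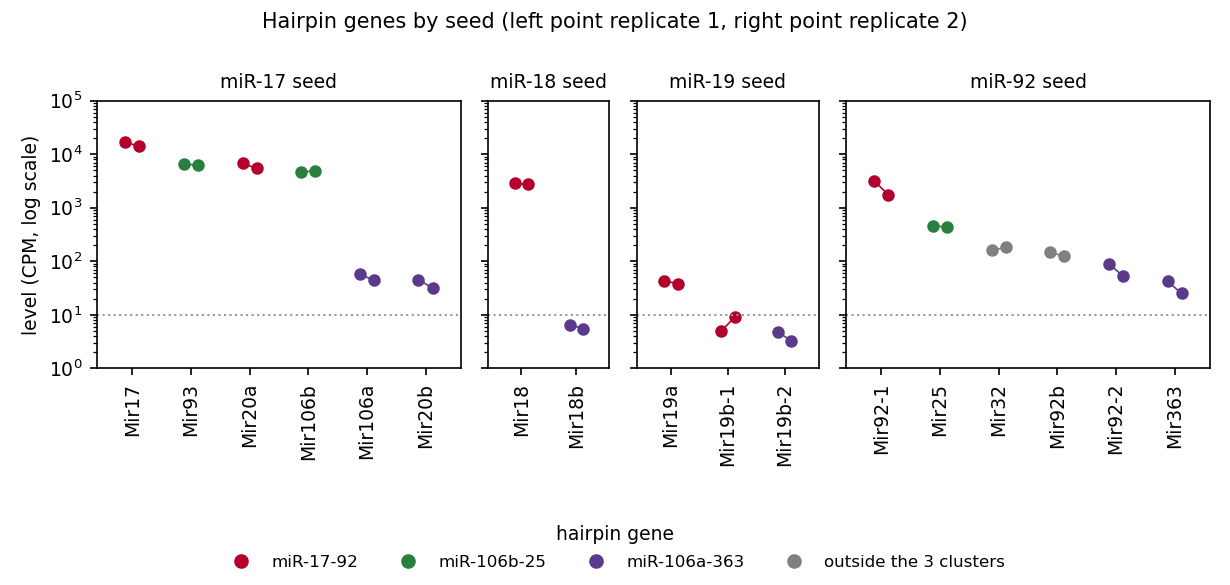
Level in CPM (log axis) of the hairpin genes that carry each of the 4 seeds, coloured by cluster; the left point of each pair is replicate 1, the right point replicate 2, and the dotted line marks 10 CPM. A miR-17-92 hairpin is the highest gene in every panel, and all genes of the miR-19 panel lie under 50 CPM.

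RefSeq holds 7 mature sequences with the miR-17 seed and 7 with the miR-92 seed, 1 more in each case than the genes described. The added genes, Mir6383 and Mir367, were chosen after their values were seen and had no read in either library.

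The hairpins themselves were alike in composition. GC content ran from 43.7% in Mir19b-1 to 47.5% in Mir92-1. Minimum free energies computed with RNAfold ran from -29.2 kcal per mol in Mir18 to -38.7 in Mir19a, or -0.304 to -0.472 per base. Mir19a had the lowest energy per base and a level 379-fold under Mir17, whose hairpin stood at -0.437 per base. With 6 hairpins no relation to level was computed.

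For each member the gene with the closest values was found by the distance in log2(CPM + 1) over the 2 libraries. Mir30e was closest to Mir17 (distance 0.14), Mir93 to Mir20a (0.20), Mirlet7f-2 to Mir18 (0.07), Mir484 to Mir92-1 (0.20), Mir877 to Mir19a (0.06) and Mir6538 to Mir19b-1 (0.21). Of these only Mir93 shares a seed with its member. Mir484, like Mir92-1, was higher in replicate 1, at 2988 CPM against 1535, which follows from its choice by closeness over both libraries. In rank, Mir17 lay between Mir23a (18097 ± 4584 CPM) and Mir21a (15325 ± 113), Mir20a between Mir93 and Mir100 (5831 ± 126), Mir18 between Mirlet7f-2 (2826 ± 41.6) and Mir183 (2779 ± 672), and Mir92-1 between Mir342 (2462 ± 266) and Mir484 (2262 ± 1027). Mir19a lay between Mir877 (41.3 ± 4.70) and Mir129-1 (39.3 ± 42.4), and Mir19b-1 between Mir6538 (7.85 ± 3.78) and Mir511 (6.95 ± 1.15). Each member overlapped both of these neighbours in level over the 2 libraries, so no place in the ranks is settled to a single position.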

How the data were processed

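The authors deposited raw read counts per gene for each library, without regard to strand and on each strand, together with 4 summary totals. The genome was mm10 and the annotation M4, per the file headers. No source used here gives the aligner, the counter or the adapter trimming. The summary totals stayed out of library sizes and tests. Of all reads, 21.3% and 20.3% were unmapped and 2.81% and 3.11% fell in no gene.

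The strand with the larger total was taken as sense. Symbols came from GENCODE M21 (GRCm38), where 1894 of 1973 identifiers matched. CPM was computed from sense counts, with means and SDs over 2 libraries. Ratios used TMM in edgeR 4.0.16 (R 4.3.3) with 0.5 added to each count, and DESeq2 1.42.0 gave alternative size factors. Intervals of ratios and shares are exact at 95%. Genes under a mean of 10 CPM were left out of the main test. The test was checked on simulated counts that held counting error only, so the check does not cover further spread between libraries. Hairpins were folded with RNAfold 2.7.2. Other steps used Python 3.11.15, numpy 2.4.6, pandas 2.3.3, scipy 1.17.1 and matplotlib 3.10.9.

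Named genes were the 6 members, the genes of both paralog clusters and of the 4 seed families, and the neighbours of each member in level. The members and lists were chosen with earlier results of these data known. Alternatives covered strand, scaling, filter, fold, denominators, members with a shared guide, and each library left out.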

Additional observations from a re-analysis of the deposited data

How the results depend on the processing

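Of 51 alternative values other than those that left out a library, 42 stayed on the same side of the threshold or within 1 SD of the reported value. Among the 42 are log2 ratios of Mir19b-1, which was tested under none of their settings, so only a change of sign could count against them. Adding 1 to each count, or ignoring strand where no read lay on the opposite strand, could hardly move an abundant member. The tally is therefore no measure of stability. The 18 values from a single library show no stability, since either of 2 values always lies within 1 SD of their mean. The cluster share of 2.67% became 1.32% over all reads of the library and 3.32% without Mir143 in the total, and leaving out 1 library gave 2.39% to 2.95%. The fold from highest to lowest member became 379 without members whose guide matches another hairpin, and 1549 to 3410 with 1 library. Members differing between replicates numbered 0 (7.96% of all genes called), 1 at a minimum of 1.5-fold (20.1%), 4 with no minimum fold (78.9%) and 1 when all genes with a read were tested (7.19%). Total-read scaling reversed the log2 ratio of Mir18 to 0.067 and DESeq2 size factors that of Mir19a to -0.034. The mean log2 CPM of members reversed the log2 ratio to miR-106b-25 from 1.19 to -1.69, and with 1 library left it was 1.05 to 1.34. The level per base of hairpin was added after the data were seen. Over all genes, total-read scaling called 29 as higher and 0 as lower in replicate 1, against 22 and 1 with TMM. No paired analysis was possible because the series has a single group. Depth limits Mir19b-1 and Mir19b-2, with at most 72 reads in a library, and reads in several positions limit every gene with a shared guide.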

Other observations

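The range of levels inside miR-17-92 was set beside that of other miRNA clusters, defined after the data were seen as runs of at least 3 genes with a Mir symbol on 1 strand with gaps of at most 10000 bases. Of 19 such runs, 13 had a read in every gene, and their median fold from the highest to the lowest mean CPM was 21.6. Runs with a gene at 0 have no such fold and were left out. Among them was the run of Mir770, from Mir127 at 8433 CPM to Mir432 at 0. Any place given here thus holds among the 13 runs only. The fold was 2205 in miR-17-92, 14.3 in miR-106b-25 and 17.8 in miR-106a-363. It was 2.66 from Mir182 to Mir96, and 14.7 from Mir429 to Mir200a. The run with Mir322 came to 1528, with Mir450-2, a numbered copy, as its lowest gene. Of the 13 runs, 1 was wider than miR-17-92, the 33 genes that start at Mir379, whose lowest gene Mir654 was near the level of a single read. That place rests on Mir19b-1, whose guide is shared. At the fold of 379 without members that share a guide, 3 runs were wider, those of Mir379, Mir322 and Mir449c. The other runs kept all their genes in this comparison, whether or not a guide was shared. The Mir449c run came to 888, from Mir449a to Mir449b. The mean of Mir449b, 0.253 CPM, lay under the floor of 3 counts (0.388 CPM in replicate 1 and 0.376 CPM in replicate 2). These values describe 2 libraries and carry no test.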
